A study of Mus musculus with 12 samples.

Results

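The GADD45 family and a set of p53 stress genes were followed in the hippocampus of mice with and without pilocarpine-induced seizures. Members were chosen by symbol: Gadd45a, Gadd45b, Gadd45g, Cdkn1a, Mdm2, Ppm1d and Trp53, each represented by the probe set of the platform annotation that carried its name. Of these 7 genes, 5 had a probe set of their own, 1 each, among 23410 probe sets with a gene name and 35556 in all. Cdkn1a was found on 1 probe set that is annotated to both Cdkn1a and 4930567H12Rik, a long non-coding RNA gene. Its signal cannot be assigned to either gene, so it is described as the shared Cdkn1a/4930567H12Rik probe set and left out of every count of members. Trp53 was not analysed here.

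GADD45 proteins are small acidic proteins without enzymatic activity that bind other proteins, among them PCNA, cyclin B1-bound CDK1 and the kinase MAP3K4 upstream of p38 and JNK. The family was named for growth arrest and DNA damage. Gadd45a is a classic p53 target, whereas Gadd45b and Gadd45g are known mainly as immediate early genes of cytokine and growth signals and, in mouse hippocampal neurons, of electrical activity, where Gadd45b has been linked to DNA demethylation at Bdnf and Fgf1. p53 itself is held low by MDM2, a ubiquitin ligase that p53 induces. Ppm1d, the phosphatase WIP1 that turns off p53 and its kinases, and Cdkn1a, the CDK inhibitor p21, are further textbook p53 targets.

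All 12 mice were males or females on a C57/Bl6 background, aged 7 to 10 weeks, with 1 array of whole hippocampus per mouse and 3 mice per group. All carried floxed Srf, encoding serum response factor (SRF), a transcription factor of activity-induced genes, together with CaMKCreERT2, a tamoxifen-inducible Cre that the Camk2a promoter drives in glutamatergic neurons of the forebrain, and all received tamoxifen. The groups were Srf mutants given pilocarpine, Srf mutants given Ringer solution (mutant control), Srf heterozygotes with a pilocarpine-induced status epilepticus (het SE) and heterozygotes given Ringer solution (het control). Pilocarpine, a muscarinic agonist, was given at 335 or 350 mg/kg after methyl scopolamine. The labels do not say which mouse had which dose. The heterozygotes, which the labels call control or WT, retained 1 intact Srf allele, so no group of this series was wild type for Srf. For het SE mice the sample records give diazepam 40 min after the onset of SE. The study's text describes an SE of 40 min for this group, and says that mice were killed at that point or received diazepam. Whether the tissue was taken before or after diazepam is not clear from these sources. The labels give the pilocarpine-treated mutants as having had a seizure. The study's text describes a group of this kind with severe seizures that did not reach SE, and a smaller group of mutants that did. The 3 treated mutants here match the former by number only, so their seizure severity is not certain. The records give no diazepam time for these mutants, and when their tissue was taken is not stated. Genotype therefore cannot be told apart from seizure severity, diazepam or time of collection when mutant and heterozygous responses are compared.

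The values were normalised log2 intensities. Srf stood at 8.90, 8.90 and 8.83 in mutant pilocarpine mice and 8.80, 8.94 and 8.96 in mutant control mice, against 10.16, 10.20 and 10.27 in het SE mice and 9.59, 9.53 and 9.60 in het control mice, so all 6 mutants lay below all 6 heterozygotes. Neuronal markers averaged 12.94 to 13.03 over all 12 arrays and none of the 6 was called in het SE against het control mice. Of the microglia markers 2 of 5, P2ry12 (-0.23) and Cx3cr1 (-0.19), were called lower with SE, where 6.93% of all probe sets were. Csf1r (0.01), Tmem119 (-0.04) and Aif1 (-0.06) did not pass the test. The mean of the microglia list spanned 8.52 to 8.58 in het SE and 8.61 to 8.69 in het control mice. Its dimmest marker, Aif1, averaged 6.05, below the array medians of 6.78 to 6.86. Of 4 endothelial markers Tek was called lower (-0.45), while Cldn5 (-0.10), Pecam1 (-0.05) and Flt1 (0.17) did not pass the test. Of 2 precursor markers Cspg4 was called higher (0.31), where 5.08% of all probe sets were, and Pdgfra (0.14) did not pass. The part of these cells in the results below was not tested. In whole tissue, fewer cells of a type and less RNA per cell cannot be told apart. Xist was above 9 on 1 of 3 mutant pilocarpine, 2 of 3 mutant control, 0 of 3 het SE and 1 of 3 het control arrays, so the sexes were not balanced over the groups.

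The upstream sequences of Gadd45b and Gadd45g are shown because these 2 genes had the largest responses among the 5 members. Both are the 250 bases before the gene start (RefSeq, GRCm38.p6, plus strand), at chr10:80929841-80930090 and chr13:51846425-51846674, printed 5′ to 3′ with capitals marking an E-box (CACGTG) and a TATA box (TATAAA).
Gadd45b: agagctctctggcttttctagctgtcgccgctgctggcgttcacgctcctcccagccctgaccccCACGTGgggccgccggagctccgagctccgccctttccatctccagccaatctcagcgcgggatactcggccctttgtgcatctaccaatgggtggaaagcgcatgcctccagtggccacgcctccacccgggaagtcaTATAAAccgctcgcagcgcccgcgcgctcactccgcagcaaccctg
Gadd45g: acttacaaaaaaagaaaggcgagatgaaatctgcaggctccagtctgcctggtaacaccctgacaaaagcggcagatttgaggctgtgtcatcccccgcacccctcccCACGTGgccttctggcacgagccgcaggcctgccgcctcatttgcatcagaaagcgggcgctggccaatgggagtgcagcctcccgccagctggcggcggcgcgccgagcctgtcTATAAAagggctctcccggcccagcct
Each of these windows held 1 E-box and 1 TATA box, the E-box at -185 in Gadd45b and -142 in Gadd45g and the TATA box at -46 in Gadd45b and -27 in Gadd45g, counted from the gene start. Both motifs were looked for after the sequences had been seen. Among the other listed genes, only the Trp53 window matched them, the E-box at 11 and the TATA box on the other strand at -248. On either strand, the E-box was found in 7.15% and the TATA box in 13.6% of 32851 mouse promoter windows that reach 250 bases before and 50 bases after a start. The CArG box, the site that SRF binds, occurred in 1.63% of these windows and in none of the 8 windows of the 7 listed genes. The AP-1 motif TGANTCA, found in 7.81%, and the EGR motif GCGTGGGCG, found in 0.612%, were likewise in none of the 8. A match or its absence describes these letters in these windows only.

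Gadd45b (probe set 10364950, gene at chr10:80930091-80932204, GRCm38.p6) was higher after pilocarpine in both genotypes. Its log2 level was 11.98, 11.90 and 11.97 in het SE mice, against 8.79, 8.60 and 8.90 in het control mice. In mutants it was 10.32, 10.32 and 10.18 after pilocarpine, against 8.92, 8.82 and 8.87 in mutant control mice. In neither genotype did treated and control mice overlap, and every treated mutant lay below every het SE mouse. The difference between het SE and het control mice was 3.19 on the log2 scale (SE 0.071, 9.11-fold, limma adjusted p = 3e-11), which ranked 19 of the 23410 probe sets tested. In mutants the difference was 1.40 (SE 0.071, 2.64-fold, limma adjusted p = 9.94e-07), which ranked 8 in that comparison. The mutant response was smaller, differing from the heterozygous response by -1.79 log2 units, with a 95% confidence interval of -2.0 to -1.57 and a limma adjusted p of 1.15e-06.

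Gadd45g (probe set 10405211, gene at chr13:51846675-51848475) showed the same order of groups with a wider gap between the genotypes. Its level was 12.62, 12.68 and 12.72 in het SE mice, against 8.53, 8.52 and 8.41 in het control mice. In mutants it was 9.35, 9.39 and 9.07 after pilocarpine, against 8.66, 8.34 and 8.70 in mutant control mice. The treated mice of each genotype lay above their controls, and the 3 treated mutants stood more than 3 log2 units below the het SE mice. The increase in het SE mice was 4.19 log2 units (SE 0.098, 18.2-fold, limma adjusted p = 3.09e-11), rank 5 of all probe sets tested. The increase in mutants was 0.70 (SE 0.098, 1.63-fold, limma adjusted p = 0.00303), rank 52. The mutant response was smaller, with a difference of -3.48 log2 units (95% confidence interval -3.78 to -3.18, limma adjusted p = 3.77e-08), and only 1 of the 23410 probe sets had a more negative difference of responses. As a description, the mutant response amounted to 44% of the heterozygous log2 response for Gadd45b and 16.8% for Gadd45g. The difference between these genes was not tested.

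Gadd45a (probe set 10545130, gene at chr6:67035096-67037407), the member of the family tied most closely to p53, changed least of the 3 GADD45 genes. It was at 7.82, 7.68 and 7.84 in het SE mice, against 7.52, 7.32 and 7.44 in het control mice. In mutants it was at 7.68, 7.63 and 7.68 after pilocarpine, against 7.45, 7.44 and 7.53 in mutant control mice. Neither pair of groups overlapped, although the steps were small. The Gadd45a probe set was dim enough to be dropped by the filter on dim probe sets, which kept those of Gadd45b and Gadd45g. The increase in het SE mice was 0.35 (SE 0.06, 1.28-fold, limma adjusted p = 0.00186). The difference in mutants, 0.19 with a 95% confidence interval of 0.06 to 0.32, did not pass the test (limma adjusted p = 0.141). Nor did the difference between the mutant and heterozygous responses, -0.16 with an interval of -0.35 to 0.02 (limma adjusted p = 0.393).

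**Figure D1:**
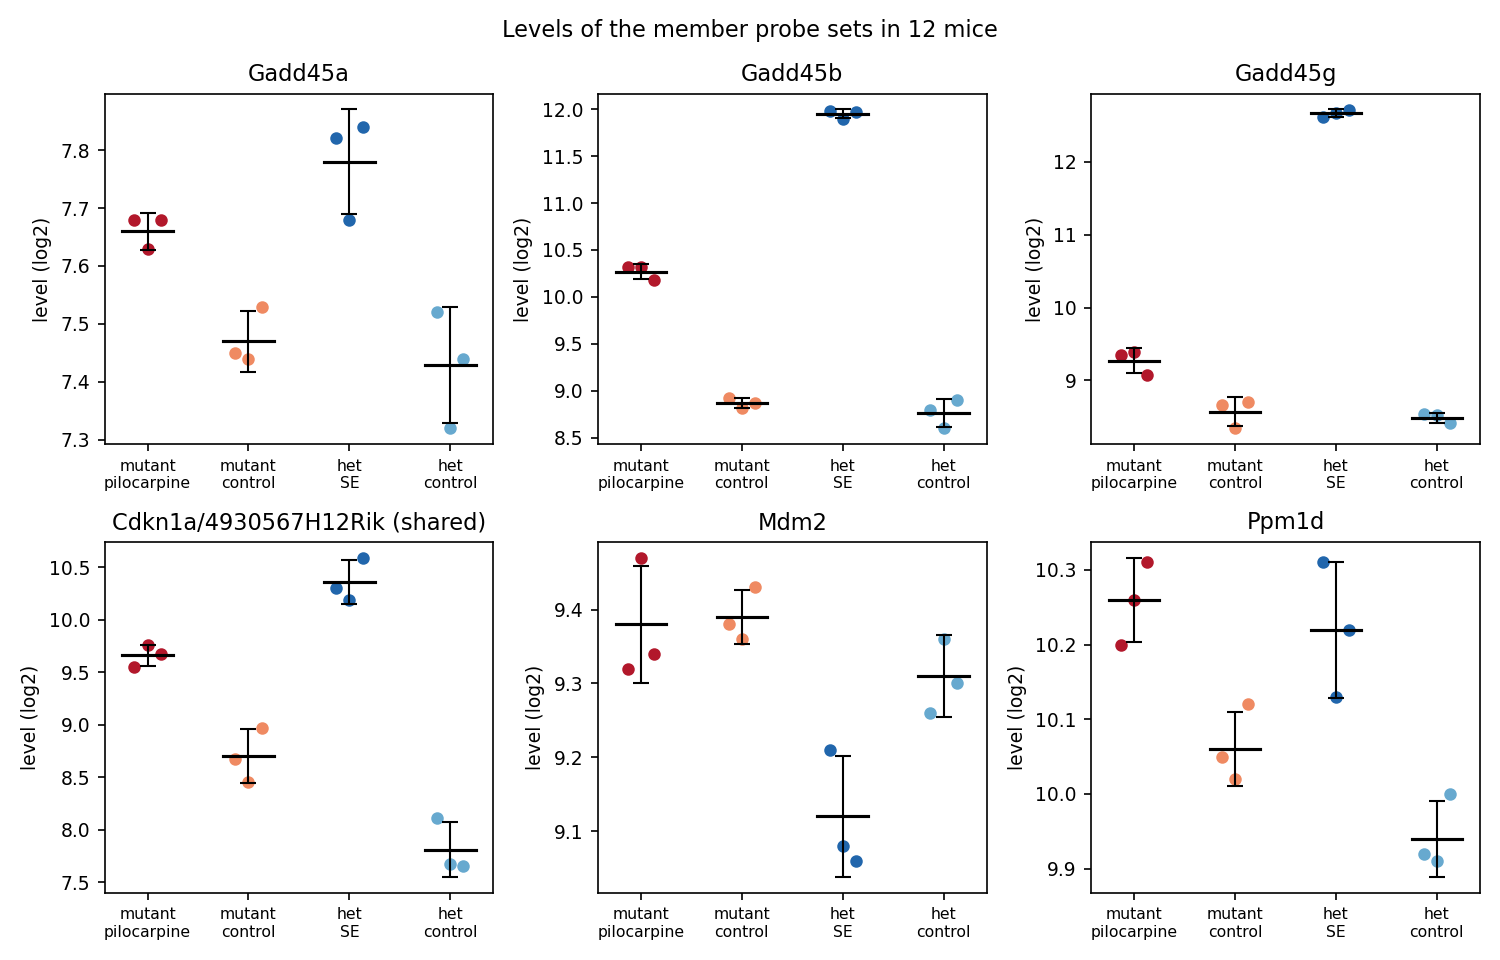
Normalised log2 level (vertical axis, its own range in each panel) of the 5 member probe sets and the shared Cdkn1a/4930567H12Rik probe set in mutant pilocarpine, mutant control, het SE and het control mice. Points are single mice, and the horizontal line and bar give the mean and SD of 3 mice. Gadd45b averaged 10.27 in mutant pilocarpine, 8.87 in mutant control, 11.95 in het SE and 8.76 in het control mice, and Gadd45g 9.27, 8.57, 12.67 and 8.48 in the same groups.

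Among the genes that restrain p53, Ppm1d rose and Mdm2 fell in het SE mice, both by little. Ppm1d (probe set 10379891, gene at chr11:85311254-85347071) was at 10.31, 10.13 and 10.22 in het SE mice, against 9.92, 9.91 and 10.00 in het control mice. Mutants had 10.20, 10.26 and 10.31 after pilocarpine, against 10.05, 10.02 and 10.12 in mutant control mice. Treated and control mice did not overlap in either genotype. The increase in het SE mice was 0.28 (SE 0.054, 1.21-fold, limma adjusted p = 0.00473). In mutants the difference was 0.19 with a 95% confidence interval of 0.07 to 0.31, which did not pass the test (limma adjusted p = 0.101). The responses of the genotypes differed by -0.09 (-0.25 to 0.08, limma adjusted p = 0.669).

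Ppm1d was the 1 member with a full cyclic AMP response element, TGACGTCA, which is read by CREB, another factor of activity-induced transcription. The element began at -85 and is in capitals in the stretch chr11:85311139-85311206 (GRCm38.p6, plus strand), shown because it is the only match to this motif among the 8 windows.
Ppm1d: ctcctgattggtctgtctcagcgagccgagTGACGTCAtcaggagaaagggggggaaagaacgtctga
The same motif was in 1.79% of the 32851 windows. Its core TGACG, in 20.8% of them, was matched once more, in Mdm2 at 29. The Ppm1d window also held the EGR motif GCGGGGGCG at -140, found in 2.91% of windows, and a p53 decamer, the 10-base unit of a p53 binding site, at -132.

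Mdm2 (probe set 10372668, gene at chr10:117688875-117710758), the ubiquitin ligase of p53, went the other way. Its level was 9.21, 9.08 and 9.06 in het SE mice, against 9.26, 9.36 and 9.30 in het control mice. In mutants it was 9.32, 9.47 and 9.34 after pilocarpine, against 9.38, 9.36 and 9.43 in mutant control mice. The het SE mice lay just below their controls, whereas the mutant groups overlapped. The difference in heterozygotes was -0.19 (SE 0.055, 0.878-fold, limma adjusted p = 0.0453). This call rested on a narrow margin: the adjusted p was 0.13 with each array centred on its median, and between 0.0202 and 0.162 when single arrays were left out. In mutants the difference was -0.01 with a 95% confidence interval of -0.13 to 0.11. The difference of the responses was 0.18 (0.01 to 0.35, limma adjusted p = 0.295).

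The shared Cdkn1a/4930567H12Rik probe set (10443463) was higher after pilocarpine in both genotypes and also differed between the untreated genotypes. It was at 10.30, 10.19 and 10.59 in het SE mice, against 8.11, 7.67 and 7.65 in het control mice. In mutants it was at 9.55, 9.76 and 9.67 after pilocarpine, against 8.67, 8.45 and 8.97 in mutant control mice. The groups formed 4 separate steps, with mutant control mice above het control mice and treated mutants below het SE mice. The increase was 2.55 in het SE mice (SE 0.15, 5.86-fold, limma adjusted p = 1.65e-07) and 0.97 in mutants (SE 0.15, 1.95-fold, limma adjusted p = 0.00597). The mutant response was smaller, with a difference of -1.58 log2 units (95% confidence interval -2.04 to -1.13, limma adjusted p = 0.000866). Mutant control mice exceeded het control mice by 0.89 (SE 0.15, 1.85-fold, 95% confidence interval 0.57 to 1.21). This ranked 2 of all probe sets in that comparison, with a limma adjusted p of 0.0494 that lost the call under 6 other settings and 11 of the fits that left out 1 array, and reached 0.229 with only these 2 groups fitted.

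Cdkn1a (chr17:29090979-29100722) is drawn on here only for its upstream sequence, because it is a textbook p53 target. The stretch chr17:29090886-29090957 (GRCm38.p6, plus strand) is printed with 2 p53 decamers in capitals, at -73 and -51 from the start of 1 of its 2 windows. Capitals mark matches to the letters of the motif only, and binding by p53 was not tested. The bases after the decamer at -51, tgacatgttc, miss the motif at the opening t and stay in lower case.
Cdkn1a: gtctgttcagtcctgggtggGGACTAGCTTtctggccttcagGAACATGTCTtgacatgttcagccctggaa
p53 decamers, found in 8.36% of all windows, were also present for Gadd45a at -40, Mdm2 at -186 and Trp53 at -75. They were absent from the other window of Cdkn1a and from the windows of Gadd45b and Gadd45g.

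Read across the members, SE was accompanied by more Gadd45a, Gadd45b, Gadd45g and Ppm1d. In het SE against het control mice 4 of the 5 members were called higher at a limma adjusted p under 0.05 and 1 lower, where 5.08% of all probe sets tested were called higher and 6.93% lower. The median difference was 0.35 over the members and -0.03 over all probe sets tested. In mutant pilocarpine against mutant control mice 2 of 5, Gadd45b and Gadd45g, were called higher and 0 lower, against a background of 0.871% higher and 0.965% lower, with medians of 0.19 and -0.00. The smaller response of the mutants was called for the same 2 genes: 2 of 5 members had a lower and 0 a higher response, where 2.12% of probe sets were called lower and 1.47% higher, and the medians were -0.16 and 0.02. The 2 responses share no mice, but their difference reuses all of them. Since the members were chosen with earlier results of these data known, their shares beside the background are a description only.

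**Figure D2:**
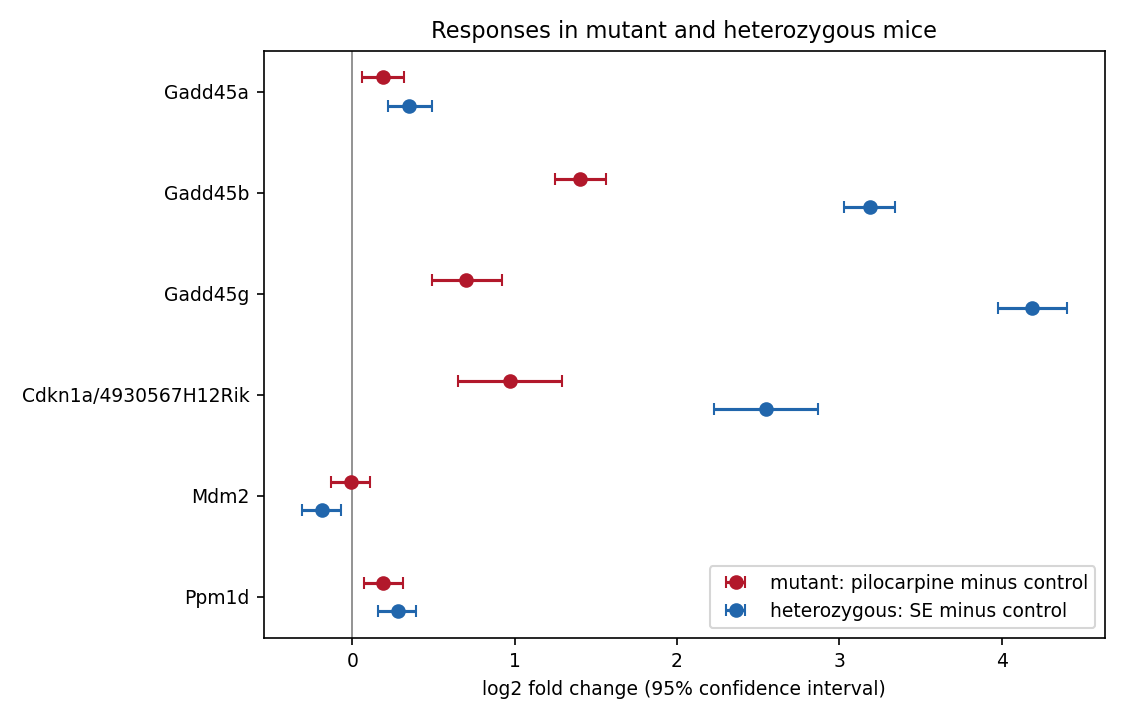
Log2 fold change after pilocarpine (horizontal axis) with its 95% confidence interval, in mutants (upper point of each pair, pilocarpine minus control) and heterozygotes (lower point, SE minus control), for the 5 members and the shared probe set. The intervals of the genotypes lie apart for Gadd45b (1.25 to 1.56 in mutants, 3.03 to 3.34 in heterozygotes) and Gadd45g (0.49 to 0.92 in mutants, 3.98 to 4.40 in heterozygotes) and for the shared probe set.

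Without seizures, none of the 5 members differed between the genotypes by the test. Mutant control minus het control was 0.04 for Gadd45a (95% confidence interval -0.09 to 0.18), 0.11 for Gadd45b (-0.05 to 0.26) and 0.08 for Gadd45g (-0.13 to 0.30). It was 0.08 for Mdm2 (-0.04 to 0.20) and 0.12 for Ppm1d (0.00 to 0.24). The groups overlapped for all but Ppm1d, which was also the 1 member with an unadjusted limma p under 0.05. How many of all probe sets had groups without overlap was not counted, so this is a description only. In this comparison 0.0384% of all probe sets were called higher and 0.0812% lower, with 1014 higher and 1029 lower at an unadjusted p under 0.05, and limma called 0 members in either direction. The exact permutation test cannot go below 0.1 with 3 mice against 3.

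Set directly beside het SE mice, treated mutants had less Gadd45b, at -1.68 (SE 0.071, limma adjusted p = 2.51e-08) and less Gadd45g, at -3.40 (SE 0.098, limma adjusted p = 7.73e-10). Mdm2 was higher in them by 0.26 (SE 0.055, limma adjusted p = 0.00944), and the shared probe set lower, at -0.70 (limma adjusted p = 0.00892). For Gadd45a the difference was -0.12 (95% confidence interval -0.25 to 0.01) and for Ppm1d 0.04 (-0.08 to 0.16). Both interneuron markers, Gad1 (0.14) and Gad2 (0.28), were also called higher in this comparison, and their part was not tested. Thus 1 of 5 members was called higher and 2 lower, against 5.39% and 4.72% of all probe sets. This comparison uses the same treated mice as the 2 responses above.

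The genes whose profiles lay nearest to Gadd45b and Gadd45g included well-known immediate early genes. Profiles were compared as the root mean square difference of levels centred on their mean over the 12 arrays, across 19933 genes, and this is a description without a test. Nearest to Gadd45b were Dusp1 (0.142 log2 units), a phosphatase of MAP kinases, Junb (0.145), an AP-1 subunit, and Nr4a1 (0.178), an orphan nuclear receptor. For comparison, the median gene differed from Gadd45b by 1.31. Nearest to Gadd45g were Egr2 (0.223), a zinc finger transcription factor, Btg2 (0.224), an antiproliferative gene and p53 target, and Spty2d1 (0.231), where the median gene differed by 1.73. The genes near Gadd45b rose by 1.24 to 1.35 in mutants and by 3.34 to 3.50 in heterozygotes. Those near Gadd45g had differences of 0.51 to 0.81 in mutants and 3.73 to 4.05 in heterozygotes. The smallest of these, Egr2 in mutants, lost its call under 12 of 21 alternatives. All 6 genes were chosen by likeness over the same arrays, so the similar size of their responses follows from that choice.

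**Figure D3:**
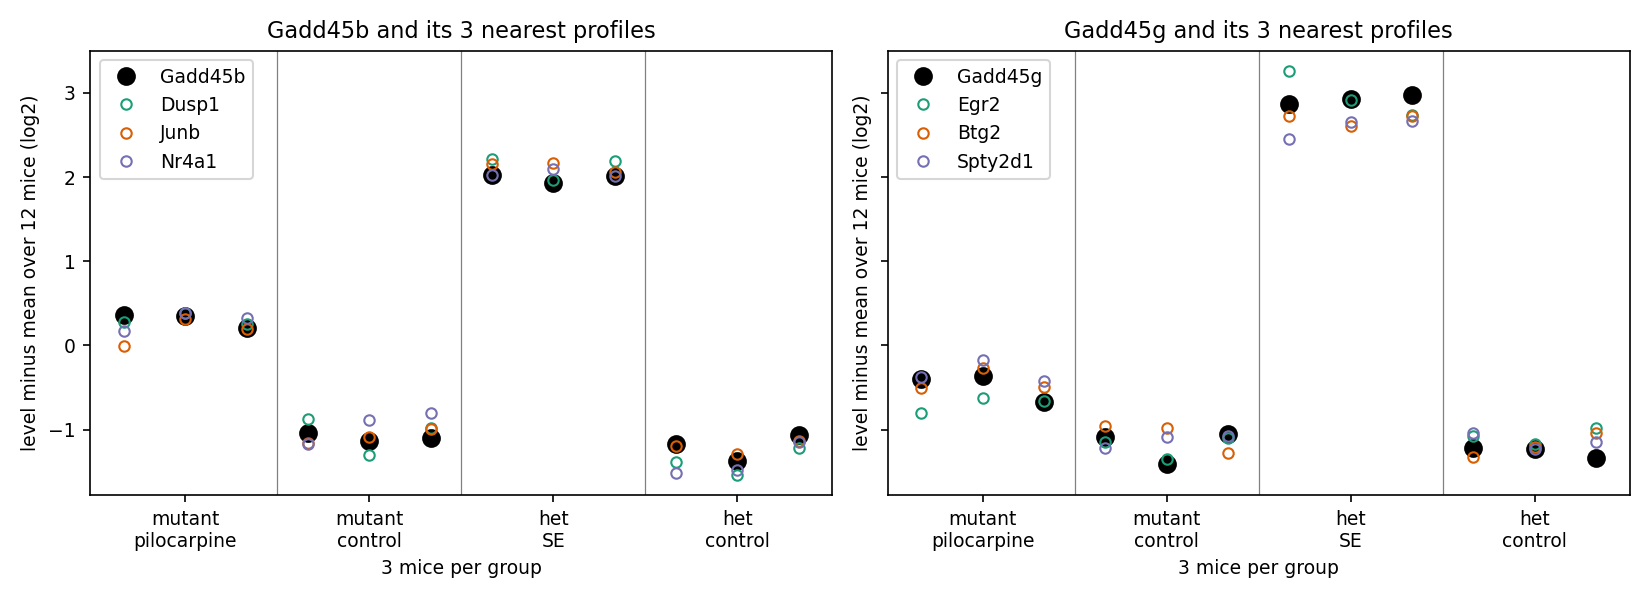
Level minus the gene's mean over 12 mice (log2, vertical axis) for Gadd45b (left) and Gadd45g (right), filled, and the 3 genes with the nearest profiles, open symbols, in 3 mice per group. In the left panel treated mutants lie between het SE mice and both control groups, and in the right panel they lie nearer to the controls than to het SE mice.

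The flatter members had neighbours of similarly small range. Gadd45a was nearest to Slc3a2 (0.0652), Sclt1 (0.0683) and Dzip1 (0.0703), Mdm2 to Zfp61 (0.043), Kbtbd2 (0.0434) and Vps37a (0.0435), and Ppm1d to Itgav (0.0499), Tet3 (0.0537) and Klf9 (0.0616). Medians over all genes were 0.185, 0.144 and 0.167 for Gadd45a, Mdm2 and Ppm1d, so these likenesses separate the named genes less from the rest than those of Gadd45b and Gadd45g did.

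Of 31 other p53 targets measured, out of 34 listed and none of them a member, 4 (12.9%) were called higher and 3 (9.68%) lower in het SE mice, where 5.08% of all probe sets were called higher and 6.93% lower. The other 24 did not pass the test, and the median was -0.07 against -0.03 over all probe sets. Btg2 rose by 3.88 (SE 0.097, limma adjusted p = 6.2e-11), spanning 11.86 to 11.98 in het SE and 7.92 to 8.21 in het control mice. Plk2, a polo-like kinase of synaptic homeostasis, rose by 1.28, Sesn2, a stress-induced regulator of mTORC1, by 0.93 and the death receptor gene Tnfrsf10b by 0.67. The Tnfrsf10b probe set was dim, averaging 6.69 in het SE and 6.02 in het control mice. Polk, Sesn1 and Tigar were lower, at -0.31, -0.26 and -0.23. Btg2 and Plk2 are also induced by neuronal activity. In mutants 2 of 31 (6.45%) were higher and 0 lower, beside 0.871% and 0.965% of all probe sets, Btg2 by 0.65 (8.74 to 8.98 after pilocarpine, 7.97 to 8.30 in mutant control mice) and Plk2 by 0.28. Plk2 lost its call in mutants under 4 settings (limma adjusted p up to 0.0863). The mutant response was called lower for 3 of 31 (9.68%), Btg2 (-3.23), Plk2 (-1.0) and Sesn2 (-0.83), and higher for 0 of 31. Over all probe sets 2.12% were called lower and 1.47% higher in this respect.

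Of 19 regulators of p53, 16 did not pass the test in het SE mice. Called higher were 2 (10.5%, beside 5.08% of all probe sets), Prkdc (0.47), the DNA-dependent protein kinase, and Trp53bp1 (0.27), a scaffold of double-strand break repair, and lower was 1 (5.26%, beside 6.93%), the deacetylase gene Sirt1 (-0.46). The median was 0.03. In mutants 0 of 19 were called in either direction, beside 0.871% higher and 0.965% lower over all probe sets. Sirt1 spanned 7.54 to 7.69 in het SE and 7.99 to 8.20 in het control mice, and its response differed between genotypes by 0.52 (limma adjusted p = 0.00887). That of Trp53bp1 differed by -0.27, a call lost when any of 3 single arrays was left out (adjusted p up to 0.0637).

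Of 11 measured genes encoding proteins that GADD45 proteins bind or act through, 1 (9.09%, beside 5.08% of all probe sets) was called higher. This was Pcna, encoding the sliding clamp of replication and repair. It rose by 0.77 in het SE mice (SE 0.055, limma adjusted p = 1.5e-06), with 11.75 to 11.96 in het SE and 11.10 to 11.16 in het control mice. In mutants the difference was 0.10 (limma adjusted p = 0.462), and the mutant response was smaller, with a difference of -0.67 (limma adjusted p = 0.000357). Mapk14, encoding p38 alpha, was lower in het SE mice, at -0.18, a call lost under 11 of 21 alternatives (adjusted p up to 0.147), and was the 1 of 11 called lower, beside 6.93% of all probe sets. The other 9 partner genes did not pass the test, and the median was -0.01. In mutants 0 of 11 were called, beside 0.871% higher and 0.965% lower over all probe sets.

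Of 12 genes of active DNA demethylation measured, 9 did not pass the test in het SE mice. Tet2 (0.47) and Tet3 (0.24) were called higher (16.7%, beside 5.08% of all probe sets) and Tet1 (-0.22) lower (8.33%, beside 6.93%), with a median of -0.12. Tet enzymes oxidise methylcytosine. Tet3 lost its call when any of 3 single arrays was left out (adjusted p up to 0.104). In mutants 1 of 12 was called (8.33% lower, beside 0.965%), Tet1, at -0.21, which lost its call under 10 alternatives. Of the 2 genes linked to Gadd45b in mouse hippocampus, Bdnf, a neurotrophin, rose by 1.72 in het SE mice (9.21 to 9.85 in het SE, 7.86 to 8.01 in het control), and Fgf1 was at -0.01 (limma adjusted p = 0.967). In mutants Bdnf differed by 0.27 (limma adjusted p = 0.376), and its mutant response was smaller, with a difference of -1.45 (limma adjusted p = 0.000753).

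Cell cycle genes and the other genes named for growth arrest or DNA damage were called in both directions in het SE mice, where 5.08% of all probe sets were called higher and 6.93% lower. Of 7 CDK inhibitors other than Cdkn1a, Cdkn1b, encoding p27, rose by 0.41 in het SE mice, Cdkn2c was lower at -0.16 (a call lost under 16 of 20 alternatives, adjusted p up to 0.148) and 0 were called in mutants, so 1 of 7 (14.3%) was higher and 1 lower with SE, with a median of -0.14. Of 10 CDKs and cyclins, Ccnd3 rose by 0.45 and Ccne2 and Cdk4 fell by 0.45 and 0.21 in het SE mice (10% higher and 20% lower, median 0.04), while in mutants only Ccnd1 was called (10% higher, beside 0.871% of all probe sets), at 0.23, lost under 13 alternatives. Ccnd1, encoding cyclin D1, was also lower in mutant control than in het control mice, at -0.40 (limma adjusted p = 0.0131, up to 0.0978 over the alternatives). Ppp1r15a, the GADD34 subunit that returns eIF2 alpha to its unphosphorylated state, rose by 2.66 in het SE mice (SE 0.083, limma adjusted p = 4.59e-10), spanning 9.74 to 9.97 against 7.09 to 7.36 in het control mice. Its mutant response was smaller, with a difference of -2.43 (limma adjusted p = 2.22e-07). Of this list of 12 genes, 2 (16.7%) were called higher and 3 (25%) lower in het SE mice, with a median of -0.12. Gas5 was the other gene called higher (0.32, lost under 7 alternatives), and Chac1, Gas1 and Gadd45gip1 were lower. In mutants 0 of these 12 genes and 0 of the 7 CDK inhibitors were called, where 0.871% of all probe sets were called higher and 0.965% lower.

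**Figure D4:**
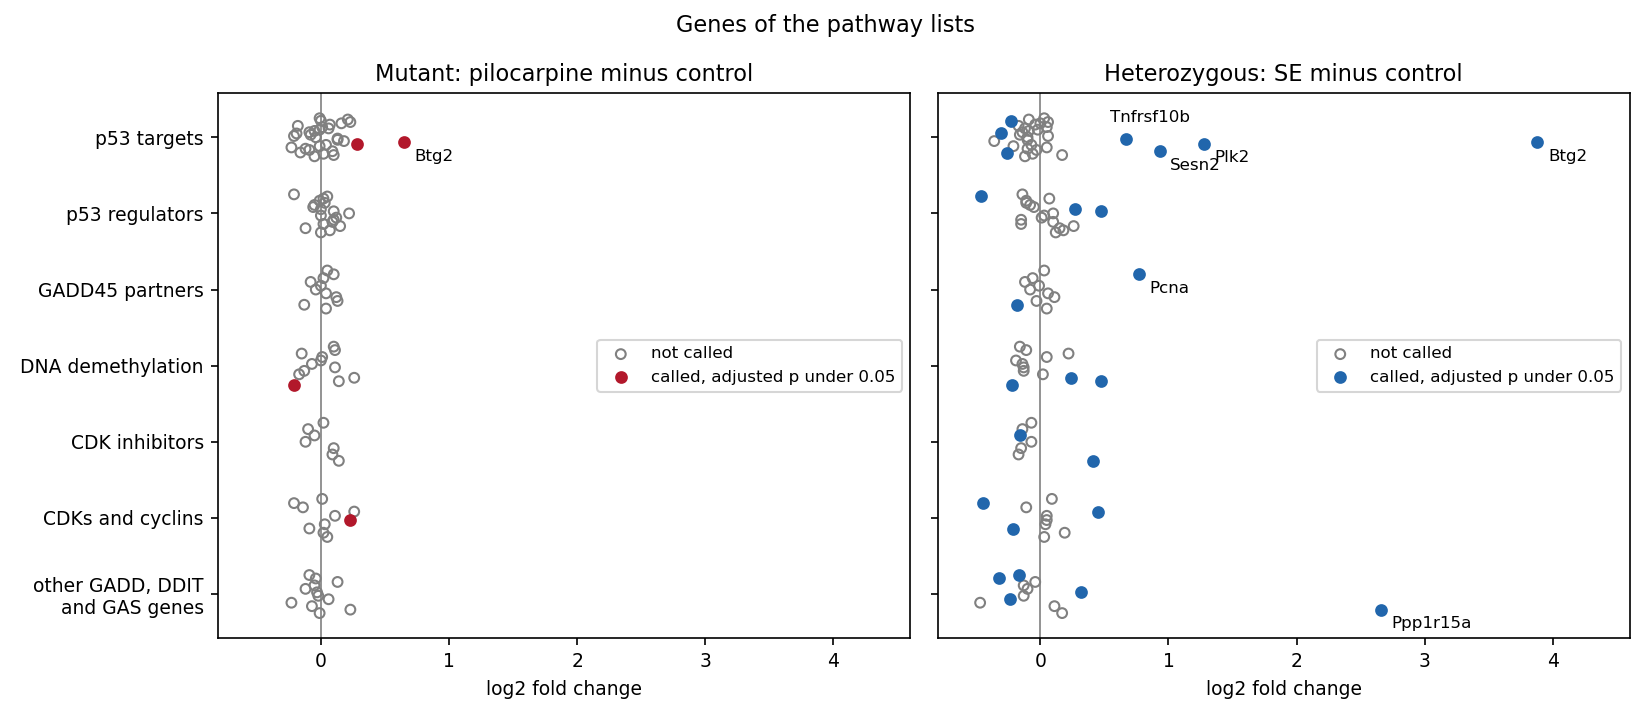
Log2 fold change (horizontal axis) of each measured gene of 7 gene lists after pilocarpine in mutants (left) and with SE in heterozygotes (right). Filled points were called at a limma adjusted p under 0.05, and called genes with a change above 0.6 are named. In heterozygotes Btg2 (3.88) and Ppp1r15a (2.66) lie farthest out, and most genes of every list are open points.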

How the data were processed

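Hippocampal total RNA of 12 mice was hybridised to Mouse Gene 1.0 ST arrays, 1 mouse per array. The authors summarised and normalised the scans by robust multiarray average in Affymetrix Expression Console and deposited 1 log2 value per probe set and array; software versions are not given in the sources used here. These log2 values were used as deposited. Probe sets were named through the platform annotation, and 21698 of the 21789 with 1 gene were found by Entrez identifier. Where a gene had several, the one with the highest mean was taken.

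Group means were compared with limma 3.58.1 (lmFit and eBayes, R 4.3.3) over all 12 arrays, with Benjamini-Hochberg adjustment over the 23410 probe sets with a gene. The threshold for a call was an adjusted p of 0.05. The label-derived groups of 3 mice limit the precision. No depth applies to arrays. The fit was tested on simulated data.

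Members and lists were chosen with earlier results of these data known. Beside the members, the text names up to 4 called genes per list and comparison by size of change, other called genes of a list in a clause, and the 3 nearest profiles per member. Alternatives covered normalization, filters, arrays left out, a block by animal number and a sex covariate. Trp53 levels were not analysed here.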

Additional observations from a re-analysis of the deposited data

Results flagged for a closer look

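For 3 probe sets the response to pilocarpine differed between the genotypes by the interaction term of the limma fit. The mutant minus heterozygous response was -1.79 for Gadd45b, -3.48 for Gadd45g and -1.58 for the shared Cdkn1a/4930567H12Rik probe set. Under the alternatives these differences ranged from -1.85 to -1.70 for Gadd45b, -3.60 to -3.39 for Gadd45g and -1.73 to -1.45 for the shared probe set. Seizure severity may have differed along with genotype, as may diazepam and the time of tissue collection. Their parts in these differences cannot be told apart.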

How the results depend on the processing

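The increases of Gadd45b and Gadd45g kept their direction and their call under every alternative fitted with limma. In het SE against het control mice they ranged from 3.10 to 3.26 and from 4.13 to 4.22, and in mutants from 1.38 to 1.45 and from 0.59 to 0.80. With 3 mice against 3, the exact permutation test gave its smallest p, 0.1, for every called difference, whose values it leaves as they were: 0.35, 3.19, 4.19, 2.55, -0.19 and 0.28 for Gadd45a, Gadd45b, Gadd45g, the shared probe set, Mdm2 and Ppm1d in het SE minus het control, 1.40, 0.70 and 0.97 for Gadd45b, Gadd45g and the shared probe set in mutants, 0.89 for the shared probe set between controls, and -1.68, -3.40, -0.70 and 0.26 for Gadd45b, Gadd45g, the shared probe set and Mdm2 in mutant pilocarpine minus het SE. The Mdm2 call in het SE mice was lost with median centring (-0.17, adjusted p = 0.13), only the compared groups (-0.19, 0.0731), all probe sets (-0.19, 0.0735) and the sex covariate (-0.19, 0.0615), leaving 0 members lower each time; over arrays left out it ranged from -0.24 to -0.16, with 0 to 1 members lower. The shared probe set's difference between controls lost its call with trend and robust variances (0.89, 0.0576), repeated quantile normalization (0.88, 0.0561), only the compared groups (0.89, 0.229), all probe sets (0.89, 0.134) and the sex covariate (0.91, 0.0821), and ranged from 0.75 to 1.03 over arrays left out. Differences near 0 changed sign: Mdm2 in mutants was 0.01 after repeated quantile normalization and -0.06 to 0.02 without single arrays, Gadd45a between controls -0.01 to 0.09 without single arrays (lowest without het control mouse 2), and Ppm1d in mutant pilocarpine minus het SE -0.01 to 0.08 (lowest without het SE mouse 2).

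Residual correlations were -0.312 to 0.323 over 18 same-numbered pairs of mice and -0.442 to 0.393 over 36 pairs with different numbers. With 3 mice per group this cannot decide whether same-numbered mice were matched in some way. With a replicate block, Mdm2 was -0.19 (adjusted p = 0.0774; 0 members lower) and the shared probe set between controls 0.89 (0.0784); probe sets called lower were 128 in mutants and 9 between controls, and no other member call changed.

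Counts over all probe sets moved more. Called higher in mutants were 204, but 121 with only the compared groups, 132 with all probe sets and 108 to 219 without single arrays. Called lower in mutants were 226, but 422 without dim probe sets, 40 with only the compared groups, 114 with all probe sets and 54 to 229 without single arrays. Called higher between controls were 9, but 5 with quantile normalization, 1 with only the compared groups, 2 with all probe sets, 4 with the sex covariate and 1 to 24 without single arrays, and called lower 19, but 8 with only the compared groups, 9 with all probe sets, 8 with the sex covariate and 6 to 23 without single arrays. Larger mutant responses numbered 344, but 224 with median centring, 584 with array weights, 217 with all probe sets and 181 to 414 without single arrays. Mutant pilocarpine over het SE numbered 1261, but 1926 with array weights and 748 to 1398 without single arrays, and het SE below het control 1623, but 1051 to 1689. Of 68 results for other named genes, 16 changed their call under some alternative and 0 their direction. A second probe set per member could not be tried. The causes were not tested.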
